A study of Mus musculus with 6 samples.

Results

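The genes of the proteasome were read out in germinal vesicle (GV) oocytes of Bnc1tr/tr and wild-type (WT) mice. A gene was taken where its symbol began with Psm, then a letter from a to g, then a digit, which found 50 of 17577 listed genes. Of these, 49 encode proteasome subunits, activators, an inhibitor or assembly factors, and Psmc3ip, which encodes a partner of the recombinases in meiosis, carries such a symbol without being a subunit. The 3 Bnc1tr/tr libraries came from mice homozygous for a frameshift deletion in Bnc1, which brings a premature stop codon into the transcript, and the 3 WT libraries from mice without it. All were 12-week-old C57BL/6 J females, the methods of the study describe gonadotropin (PMSG) priming before oocytes were collected and cDNA made from 1 oocyte at a time, and the allele is present in every cell of the mouse and not in the oocyte alone. Since values are FPKM (fragments counted per gene, divided by transcript length and by the mapped fragments of the library), they give a share of each library, so less of a transcript per oocyte and more of all others cannot be told apart.

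The 26S proteasome degrades proteins that carry ubiquitin chains. Its 20S core is a barrel of alpha subunits (Psma), which gate the entry, and beta subunits (Psmb), some of which cut peptide bonds. The 19S regulatory particle holds a ring of ATPases (Psmc) that unfold substrates and non-ATPase subunits (Psmd) that bind and remove ubiquitin. Alternative caps (Psme), an inhibitor (Psmf1) and dedicated chaperones (Psmg and some Psmd genes) complete the set. In oocytes the proteasome is known for the timed destruction of cyclin B and securin at the meiotic divisions and for the turnover of maternal proteins after fertilization.

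Bnc1 itself had 9.04, 6.51 and 5.83 FPKM in Bnc1tr/tr and 13.2, 12.5 and 16.2 FPKM in WT, in each case for replicates 1 to 3 in order, as for all genes below (log2 fold change -0.89, SE 0.20, limma adjusted p = 0.009), so transcript was lower but present in the mutant libraries. Fragment numbers per library, inferred from the spacing of low FPKM values, were 13.1 to 21.3 M (mega), at which 3 fragments on 1 kb equal 0.141 to 0.229 FPKM. Oocyte markers were abundant in every library (10 of 10 found, summed FPKM 7512 to 8082 in Bnc1tr/tr and 6445 to 10527 in WT, Zp2 and Nlrp5 called lower). Markers of granulosa and cumulus cells summed to 46.3 to 63.95 FPKM in Bnc1tr/tr and 22.2 to 39.6 FPKM in WT, with Fshr and Cyp11a1 of 5 tested genes called higher and Foxl2 and Lhcgr at 0 in every Bnc1tr/tr library. Cyp19a1 made up most of each sum (means 35.1 against 23.3 FPKM, with overlap) and was not called. Inha (0.69 against 3.42 FPKM) and Hsd17b1 (0.20 against 0.79 FPKM) had lower means in Bnc1tr/tr, with overlap. Theca and stroma markers summed to 5.50 to 7.53 against 1.40 to 2.09 FPKM, with Dcn the 1 tested gene and called higher. The part of these other cells in the results below was not tested.

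Transcripts of the constitutive proteasome were abundant in WT oocytes. The 49 genes held 1.67% to 1.68% of the FPKM total of the WT libraries and 1.59% to 1.72% of the Bnc1tr/tr libraries. Each of the 14 core genes had a WT mean of at least 123 FPKM (Psmb5), with a median of 400.4 FPKM and a maximum of 1443 FPKM (Psma2). The 6 ATPase genes spanned 109.8 to 414 FPKM, and the 14 non-ATPase genes 2.38 to 471 FPKM. Because FPKM is per length, these levels can be set side by side: although the complex holds its subunits in fixed numbers, the core transcripts differed 11.7-fold in WT level and those of the ATPases 3.78-fold. Without Psmb5, whose sequence is largely shared with another gene model, the core spread was 7.33-fold. The lowest core gene was then Psma4, for which 35.5% of the 31-base words of its transcripts also occur in other genes, so this spread is uncertain too.

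**Figure D1:**
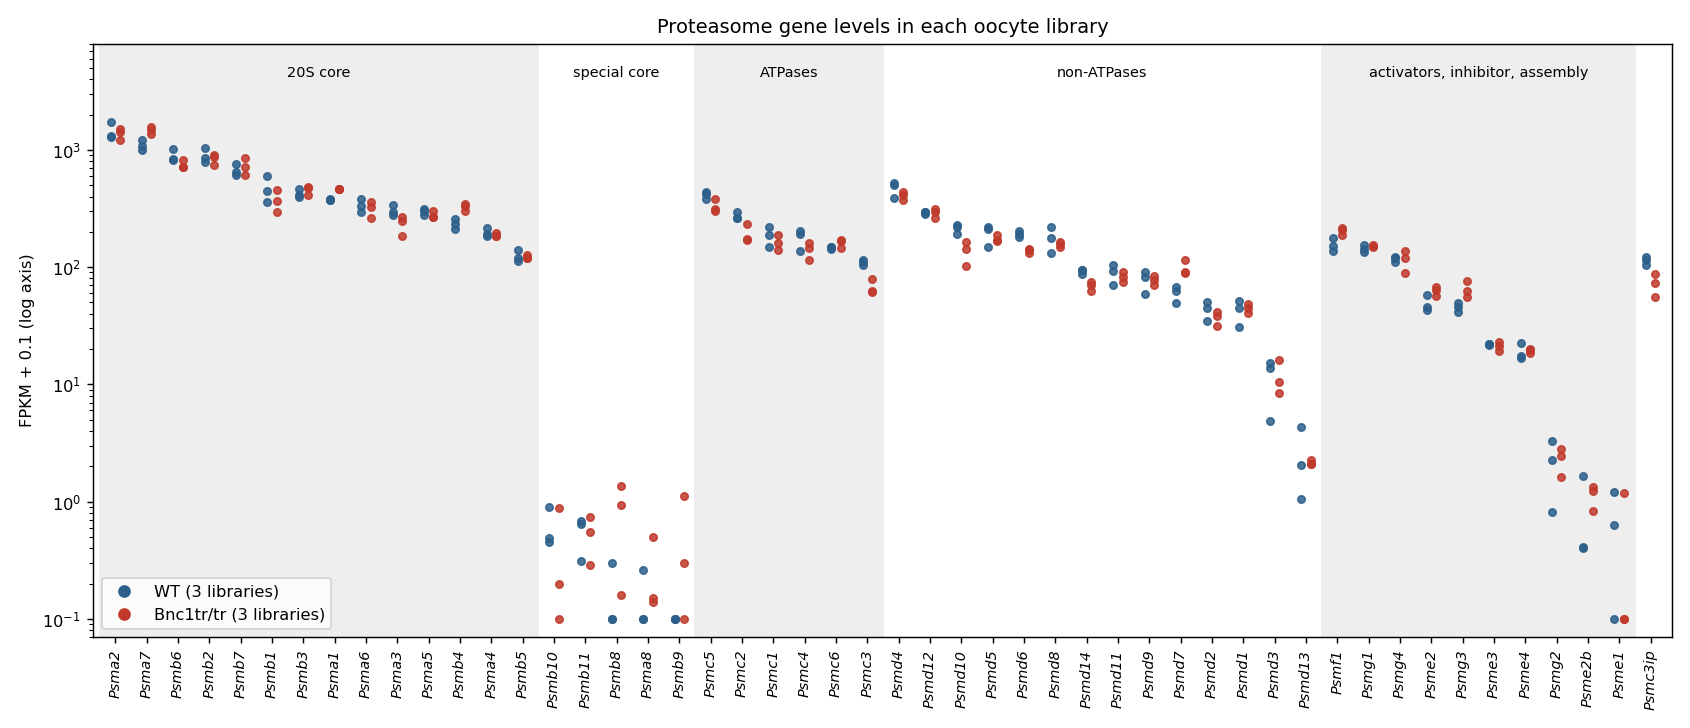
FPKM + 0.1 on a log axis for each of the 50 genes, with 3 WT (blue) and 3 Bnc1tr/tr (red) libraries as points, in family groups ordered by WT level (Psmc3ip at the right end). The 14 constitutive core genes lie above 100 FPKM in every library, and the 5 inducible or tissue-specific core genes stay below 1.5 FPKM.

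Whether the genotypes differed was tested by limma, on log2(FPKM + 1), over the 10560 genes whose mean reached 1 FPKM. A gene was called where the adjusted p was under 0.05 and the log2 fold change exceeded 0.5 in size. Of the 49 proteasome genes 42 were tested, and 3 of them (7.14%) were called, against 31.8% of all tested genes. Psmd7 rose, against 24.1% of all genes called higher, and Psmc3 and Psmd10 fell, against 7.68% of all genes called lower. The other 39 did not pass, and the 7 untested genes were Psma8, Psmb8, Psmb9, Psmb10, Psmb11, Psme1 and Psme2b. The share of calls among abundant genes was lower in general: of 1288 genes whose mean reached 100 FPKM 18.9% were called, 9.47% higher and 9.39% lower, and of the 28 proteasome genes in that range 1 (Psmd10) was.

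The median log2 fold change of the 42 genes was -0.06, against 0.15 over all tested genes and -0.06 over the genes of at least 100 FPKM. A fold change relative to the median of all genes is thus lower by 0.15 than the value given. Over the 42 genes the values ran from -0.71 (Psmc3) to 0.71 (Psmd7), with 26 below and 16 above 0. The groups did not overlap for 12 of the 42 (28.6%), against 46.8% of all tested genes, with 6 above WT (background 32.7%) and 6 below WT (background 14.1%). Under upper-quartile and median-ratio scaling, which shift all genes of a library alike, 33 and 34 of the 42 were below 0, and the medians relative to all genes were then -0.22 and -0.23, near the -0.21 of the values as deposited. Quantile normalization brought that difference to -0.0059.

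**Figure D2:**
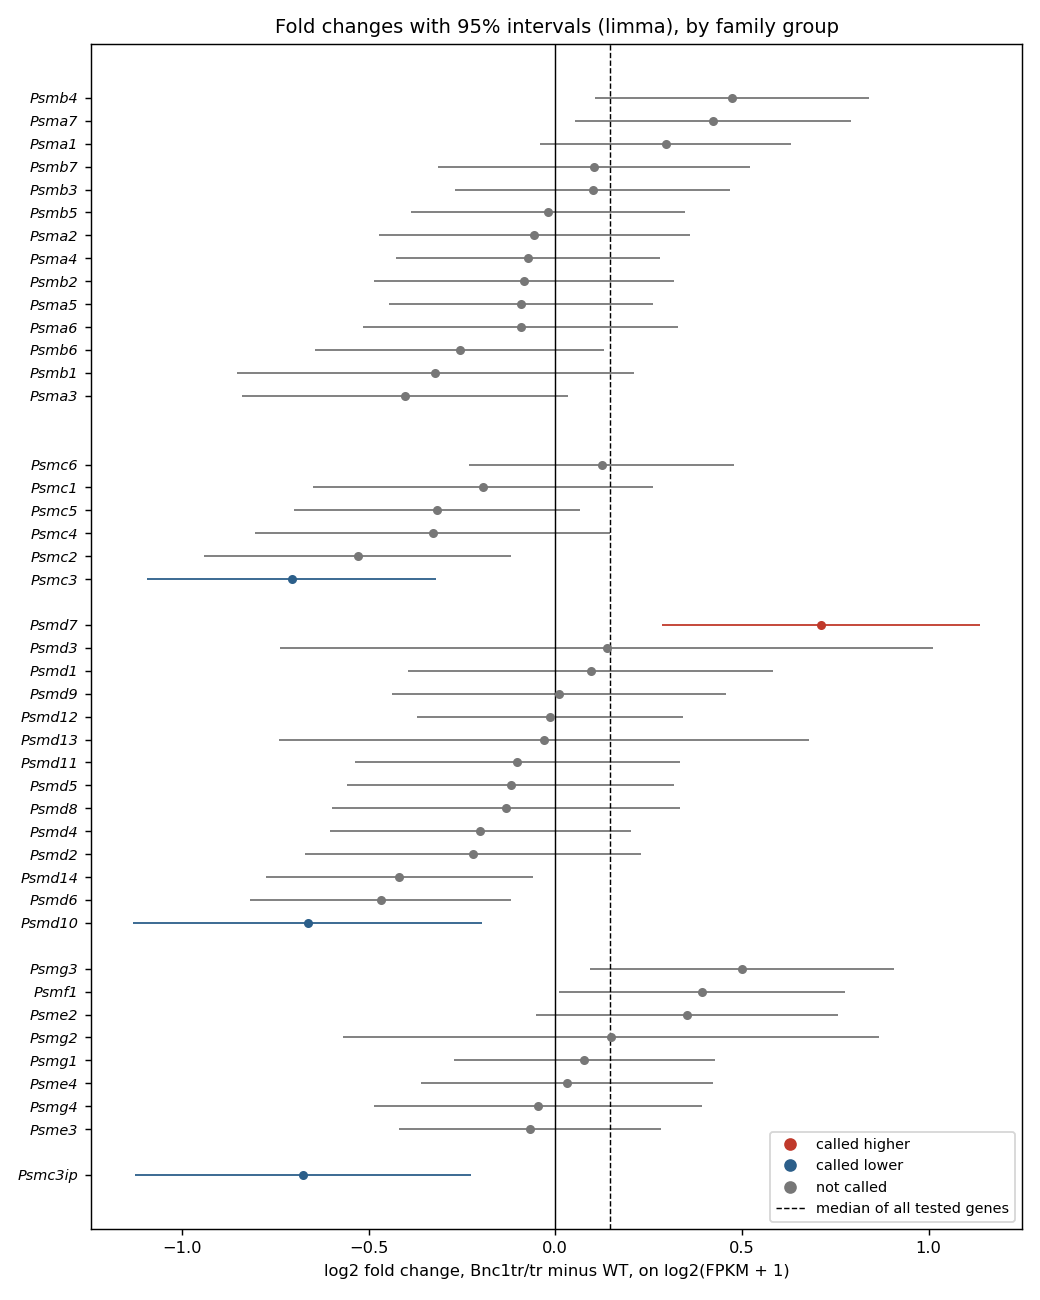
Log2 fold change (Bnc1tr/tr minus WT, on log2(FPKM + 1)) with 95% limma intervals for the 42 tested proteasome genes and Psmc3ip, in the order core, ATPases, non-ATPases, activators with inhibitor and assembly, and Psmc3ip. Psmd7 (red) was called higher, Psmc3, Psmd10 and Psmc3ip (blue) lower, and the dashed line marks the median of all tested genes at 0.15.

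In the 20S core none of the 14 constitutive genes was called. Of all tested genes 31.8% were called, and of those whose mean reached 100 FPKM, as each core gene did, 18.9%. The median log2 fold change of the 14 core genes was -0.06 and the range -0.40 to 0.47. The catalytic subunits are Psmb6 (caspase-like cutting), Psmb7 (trypsin-like) and Psmb5 (chymotrypsin-like). Psmb5 had 119, 126 and 118 FPKM in Bnc1tr/tr and 139, 119 and 112 FPKM in WT, and the groups overlapped. Psmb6 had 708, 824 and 707 FPKM in Bnc1tr/tr and 815, 842 and 1024 FPKM in WT, so that WT replicate 3 stood above the others. Psmb7 had 614, 849 and 713 FPKM in Bnc1tr/tr and 607, 650.0 and 759 FPKM in WT, again with overlap. The 95% intervals of the log2 fold change were -0.39 to 0.35 for Psmb5, -0.64 to 0.13 for Psmb6 and -0.32 to 0.52 for Psmb7 (limma adjusted p = 0.95, 0.29 and 0.71). None of these intervals reaches an absolute log2 fold change of 1, but those of Psmb6 and Psmb7 extend past 0.5, the size used for calls.

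Psma2, an alpha subunit and the most abundant of all 50 genes, had 1225, 1419 and 1494 FPKM in Bnc1tr/tr and 1287, 1309 and 1733 FPKM in WT (log2 fold change -0.06, limma adjusted p = 0.85). After the values were seen, 4 other core genes were singled out because their groups did not overlap. This is 28.6% of the 14 core genes, against 46.8% of all tested genes. Psma7 had 1357, 1491 and 1565 against 1006, 1069 and 1220.2 FPKM, and Psmb4 335, 343 and 302 against 258, 234 and 213 FPKM, each Bnc1tr/tr library above each WT library. Psma1, whose replicates lay close together, had 467, 463 and 462 against 383, 373 and 377 FPKM. Psma3 alone was below WT in every library, at 184, 269 and 246 against 281, 297 and 339.8 FPKM. By limma their adjusted p values were 0.079 (Psma7), 0.052 (Psmb4), 0.16 (Psma1) and 0.14 (Psma3), so none was called. Psma7 was called higher after quantile normalization and without WT replicate 3.

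The transcription factor NRF1 (Nfe2l1) raises proteasome genes when proteasome activity is short, through antioxidant response elements, whose core was searched as TGACNNNGC on both strands of promoter windows (250 bases before to 50 after an annotated start, GRCm38.p6, sequences from RefSeq). Of the 50 genes 42 matched the promoter table, with 45 windows, and 6 windows (13.3%) held the core, against 12.4% of all 32851 windows. They belonged to Psmb5, Psmb6, Psmc6, Psmd9, Psmd12 and Psme4, none of them called between the genotypes. The windows of Psmd10 and Psmc3ip, both called lower, held 0. The called genes Psmc3 and Psmd7 had no window and were not searched, so a relation between matches and calls cannot be read from these counts. The windows of the catalytic subunits Psmb5 (chr14:54617946-54618245, minus strand) and Psmb6 (chr11:70525107-70525406, plus strand) are shown with the match in capitals, at -47 and -9 from the start. That of Psmd10 (chrX:140956662-140956961, minus strand), which held no match, is shown as the only called proteasome gene with a window. A match is a description of letters and not of binding.
Psmb5: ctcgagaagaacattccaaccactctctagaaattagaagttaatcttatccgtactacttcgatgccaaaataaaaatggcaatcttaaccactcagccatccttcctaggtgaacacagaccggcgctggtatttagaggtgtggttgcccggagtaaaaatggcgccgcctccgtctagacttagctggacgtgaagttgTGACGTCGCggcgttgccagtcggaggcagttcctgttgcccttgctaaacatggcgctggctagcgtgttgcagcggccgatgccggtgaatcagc
Psmb6: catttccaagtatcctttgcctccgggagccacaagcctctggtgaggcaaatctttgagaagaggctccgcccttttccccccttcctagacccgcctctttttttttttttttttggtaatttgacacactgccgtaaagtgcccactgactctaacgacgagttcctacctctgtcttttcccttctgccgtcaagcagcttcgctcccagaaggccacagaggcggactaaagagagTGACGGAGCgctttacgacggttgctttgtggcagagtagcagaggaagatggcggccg
Psmd10: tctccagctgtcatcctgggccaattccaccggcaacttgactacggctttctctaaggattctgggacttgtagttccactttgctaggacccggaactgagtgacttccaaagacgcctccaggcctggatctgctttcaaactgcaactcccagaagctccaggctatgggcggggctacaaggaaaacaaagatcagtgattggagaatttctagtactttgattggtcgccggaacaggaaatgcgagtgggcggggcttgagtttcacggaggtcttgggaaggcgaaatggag

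The 5 core genes that replace a constitutive subunit in other cells were low, at 1.27 FPKM or less in every library. Psmb8, Psmb9 and Psmb10 form the immunoproteasome, which interferon induces in immune and inflamed cells, Psmb11 the thymoproteasome of cortical thymic epithelium, and Psma8 the form found in spermatocytes. Psmb8 had 1.27, 0.83 and 0.06 FPKM in Bnc1tr/tr and 0.20, 0 and 0 FPKM in WT, where 3 fragments equal 0.0992 to 0.162 FPKM. Psmb9 had 1.02, 0.20 and 0 FPKM in Bnc1tr/tr and was listed at 0 in every WT library. Both were highest in Bnc1tr/tr replicate 1 and at or near 0 in replicate 3. In no library did Psmb8 exceed 1.07% of Psmb5, its constitutive counterpart, in FPKM, nor Psmb9 0.144% of Psmb6, Psmb10 0.129% of Psmb7 or Psma8 0.0268% of Psma7. Psmb10 had 0.79, 0.10 and 0 FPKM in Bnc1tr/tr and 0.39, 0.80 and 0.35 FPKM in WT. Psmb11 had 0.64, 0.45 and 0.19 FPKM in Bnc1tr/tr and 0.55, 0.58 and 0.21 FPKM in WT, and Psma8 0.05, 0.40 and 0.04 FPKM in Bnc1tr/tr and 0, 0.16 and 0 FPKM in WT, with overlap in each case. Psmb11 lay above the level of 3 fragments (0.0349 to 0.0568 FPKM) in every library. None of the 5 reached a mean of 1 FPKM, so none was tested.

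Immune cell markers also differed between the libraries. All 10 markers summed to 99.2, 139 and 64.8 FPKM in Bnc1tr/tr and 86.9, 98.3 and 68.4 FPKM in WT, with overlap. C1qb, the most abundant, had 53.1, 70.7 and 58.6 FPKM in Bnc1tr/tr and 82.7, 95.3 and 64.8 FPKM in WT. Its log2 fold change was -0.40, and it was not called. Without C1qb, the other 9 of 10 markers summed to 46.1, 68.6 and 6.13 FPKM in Bnc1tr/tr replicates 1 to 3 and to 2.99 to 4.17 FPKM in WT. Of the 10, 6 were at 0 in every WT library (Ptprc, Adgre1, C1qa, Cd74, Lyz2 and Tyrobp), and 1 of 6 tested, Laptm5, was called higher. Among the Bnc1tr/tr libraries Ptprc, Cd68, Cd74, Laptm5 and Coro1a were highest in replicate 1, as Psmb8 and Psmb9 were, C1qa, Lyz2 and Tyrobp in replicate 2, and Adgre1 in replicate 3. The part of these cells in the Psmb8 and Psmb9 values was not tested.

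Among the 6 ATPases, which unfold the substrate and thread it into the core, Psmc3 fell. Psmc3 (chr2:91054016-91059438, GRCm38.p6) had 60.9, 79.1 and 61.9 FPKM in Bnc1tr/tr and 109.7, 115 and 104 FPKM in WT, and every Bnc1tr/tr library was below every WT library. The means were 67.3 ± 10.2 against 109.8 ± 5.62 FPKM (SD, n = 3 each), and the log2 fold change was -0.71 (SE 0.17, limma adjusted p = 0.013). It kept the call in 13 of 14 alternatives and lost it without WT replicate 2, where the log2 fold change was -0.67 (limma adjusted p = 0.060). Psmc5, the most abundant ATPase gene, had 302, 384 and 315 FPKM in Bnc1tr/tr and 441, 421 and 381 FPKM in WT, with Bnc1tr/tr replicate 2 just above WT replicate 3, and was called lower under median-ratio scaling. Psmc2, named after its values were seen, had 169.6, 233 and 173 FPKM in Bnc1tr/tr and 264, 264 and 296 FPKM in WT without overlap (log2 fold change -0.53, limma adjusted p = 0.053). Psmc2 was called lower under upper-quartile and median-ratio scaling, quantile normalization, a minimum mean of 5 FPKM, trend and robust variances, and without Bnc1tr/tr replicate 2. The remaining Psmc1, Psmc4 and Psmc6 had log2 fold changes of -0.19, -0.33 and 0.12. The median of the 6 was -0.32, with 5 below 0 as deposited and after quantile normalization and 6 after the other scalings.

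The non-ATPase gene Psmd7 rose. Psmd7 (chr8:107580380-107588482, GRCm38.p6) encodes the lid subunit that pairs with the deubiquitinase Psmd14. It had 115, 89.7 and 90.6 FPKM in Bnc1tr/tr and 67.6, 62.0 and 49.8 FPKM in WT, so the lowest Bnc1tr/tr library lay above the highest WT library. The means were 98.4 ± 14.3 against 59.8 ± 9.10 FPKM (SD, n = 3 each), and the log2 fold change was 0.71 (SE 0.19, limma adjusted p = 0.019). The call was lost without Bnc1tr/tr replicate 1 (log2 fold change 0.60, limma adjusted p = 0.069) and without WT replicate 2 (log2 fold change 0.74, limma adjusted p = 0.056). Its partner Psmd14, which cuts ubiquitin chains from the substrate, had 63.0, 74.7 and 70.1 FPKM in Bnc1tr/tr and 87.8, 95.1 and 95.2 FPKM in WT (log2 fold change -0.42, SE 0.16, limma adjusted p = 0.074). Psmd14 thus lay below WT in every library without passing, and was called lower under upper-quartile and median-ratio scaling.

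Psmd6, a lid subunit named after its values were seen, had 133, 144 and 139 FPKM in Bnc1tr/tr and 205, 191 and 180.1 FPKM in WT, and its adjusted p of 0.046 by limma passed while its log2 fold change of -0.47 did not. It was called lower under upper-quartile and median-ratio scaling and without WT replicate 3. Over the 8 lid genes the median log2 fold change was -0.07, with 6 below and 2 above 0. The ubiquitin receptor Psmd4 had 410.2, 437 and 374 FPKM in Bnc1tr/tr and 523, 499 and 390.0 FPKM in WT. Psmd2, a scaffold of the base that docks ubiquitin-binding proteins, had 38.2, 31.2 and 41.0 FPKM in Bnc1tr/tr and 50.5, 45.0 and 34.4 FPKM in WT. In both, WT replicate 3 was below the other WT libraries and the groups overlapped (log2 fold changes -0.20 and -0.22, limma adjusted p = 0.43 and 0.43).

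Psmd13, a lid subunit, was the lowest of the 14 non-ATPase genes, with 2.18, 1.99 and 1.98 FPKM in Bnc1tr/tr and 4.23, 1.94 and 0.96 FPKM in WT. Its WT mean of 2.38 FPKM compared with 291 FPKM for the lid subunit Psmd12, a 122-fold difference in level, and with 11.2 FPKM for Psmd3, the next lowest lid gene. Of the 31-base words of Psmd13 transcripts, 13.9% also occur in transcripts of other genes, most in Sirt3. Psmd13 was not called, and its WT replicates alone spanned 0.96 to 4.23 FPKM (95% interval of the log2 fold change -0.74 to 0.68).

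Of the chaperones that build the regulatory particle, Psmd10 fell. Psmd10 (chrX:140948425-140956711, GRCm38.p6), also known as gankyrin, holds the ATPase Psmc4 during assembly. It had 103, 165 and 143 FPKM in Bnc1tr/tr and 193, 228 and 222 FPKM in WT, without overlap. The means were 137 ± 31.6 against 214 ± 18.6 FPKM (SD, n = 3 each), and the log2 fold change was -0.66 (SE 0.21, limma adjusted p = 0.037). This was the weakest of the 3 calls, lost with a pseudocount of 0.1, without the filter on low values, and without Bnc1tr/tr replicate 1 or 3 or WT replicate 2 or 3 (log2 fold changes from -0.47 to -0.71, limma adjusted p from 0.059 to 0.12). Psmd5 had 171, 166 and 188 FPKM in Bnc1tr/tr and 219, 211 and 148 FPKM in WT, and Psmd9 83.5, 77.1 and 70.7 FPKM in Bnc1tr/tr and 90.6, 82.7 and 59.4 FPKM in WT, with overlap in both. Their log2 fold changes were -0.12 and 0.01 (limma adjusted p = 0.68 and 0.97).

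The chaperones that build the core are Psmg1 to Psmg4, which act as the pairs Psmg1 with Psmg2 and Psmg3 with Psmg4. Psmg1 had 151, 148 and 153 FPKM in Bnc1tr/tr and 141, 133 and 155 FPKM in WT. Its partner Psmg2 had 1.52, 2.34 and 2.70 FPKM in Bnc1tr/tr and 2.16, 3.22 and 0.71 FPKM in WT, so the transcripts of this pair differed 70.5-fold in WT level. Psmg3 had 62.4, 76.6 and 56.0 FPKM in Bnc1tr/tr and 49.8, 45.3 and 41.1 FPKM in WT, without overlap, and with a log2 fold change of 0.50 it missed the threshold (limma adjusted p = 0.063). It was called higher with trend and robust variances. Psmg4 had 89.3, 137 and 119 FPKM in Bnc1tr/tr and 109.9, 122 and 119.7 FPKM in WT, with overlap. None of the 4 was called.

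Activators replace the regulatory particle at the end of the core, and Psmf1, also known as the proteasome inhibitor PI31, binds the core as an inhibitor. Psmf1 had 188, 217 and 206 FPKM in Bnc1tr/tr and 177, 153 and 137 FPKM in WT, above WT in every Bnc1tr/tr library (log2 fold change 0.39, SE 0.17, limma adjusted p = 0.11). Psme1 and Psme2 form the mixed ring of the interferon-inducible activator PA28. Psme1 had 1.09, 0 and 0 FPKM in Bnc1tr/tr and 0.53, 1.11 and 0 FPKM in WT, while Psme2 had 56.2, 67.7 and 63.5 FPKM in Bnc1tr/tr and 43.2, 45.8 and 57.9 FPKM in WT, so that the genes of the ring differed widely in level in both genotypes. Psme2b, a second copy of Psme2 on another chromosome, had 1.23, 0.74 and 1.13 FPKM in Bnc1tr/tr and 0.30, 0.31 and 1.55 FPKM in WT, and since 78.4% of its 31-base words and 62.6% of those of Psme2 occur in other genes, how reads were split between them is uncertain. Psme3, which forms the nuclear activator PA28 gamma, had 22.7, 20.9 and 19.2 FPKM in Bnc1tr/tr and 21.6, 22.2 and 22.1 FPKM in WT. Psme4, the large activator PA200, had 19.4, 19.8 and 18.4 FPKM in Bnc1tr/tr and 16.8, 17.4 and 22.6 FPKM in WT. Psme2, Psme3 and Psme4 overlapped between groups and were not called (limma adjusted p = 0.17, 0.77 and 0.91).

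Psmc3ip, also known as Hop2, works in the exchange of DNA strands at meiosis and is not part of the proteasome. It had 55.5, 86.8 and 73.5 FPKM in Bnc1tr/tr and 104, 115 and 123 FPKM in WT, without overlap, and fell (log2 fold change -0.68, SE 0.20, limma adjusted p = 0.03). The call was lost in 5 of 14 alternatives, with a pseudocount of 0.1 and without Bnc1tr/tr replicate 1 or 3 or WT replicate 2 or 3, where the log2 fold changes were -0.50 to -0.70. Counted with it, 4 of 43 tested genes with such symbols (9.30%) were called, against 31.8% of all tested genes.

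Summed over its 14 genes, the core had 7171, 8423 and 8150.3 FPKM in Bnc1tr/tr and 7164, 7413 and 8712 FPKM in WT, a ratio of means of 1.02. The 6 ATPases summed to 1005, 1211 and 949.7 against 1376, 1338 and 1211 FPKM, a ratio of 0.806. Bnc1tr/tr replicate 2 and WT replicate 3 nearly coincided for the ATPases, at 1210.6 and 1211.3 FPKM. The 14 non-ATPase genes summed to 1696, 1779 and 1701 against 2113, 2036 and 1715 FPKM (ratio 0.883), with overlap. Activators, inhibitor and core chaperones summed to 593, 691 and 639 against 562, 543 and 558 FPKM (ratio 1.16), without overlap, a ratio that shrank to 1.05 after upper-quartile and 1.02 after median-ratio scaling. The 5 inducible or tissue-specific core genes summed to 3.77, 1.98 and 0.29 against 1.14, 1.54 and 0.56 FPKM.

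**Figure D3:**
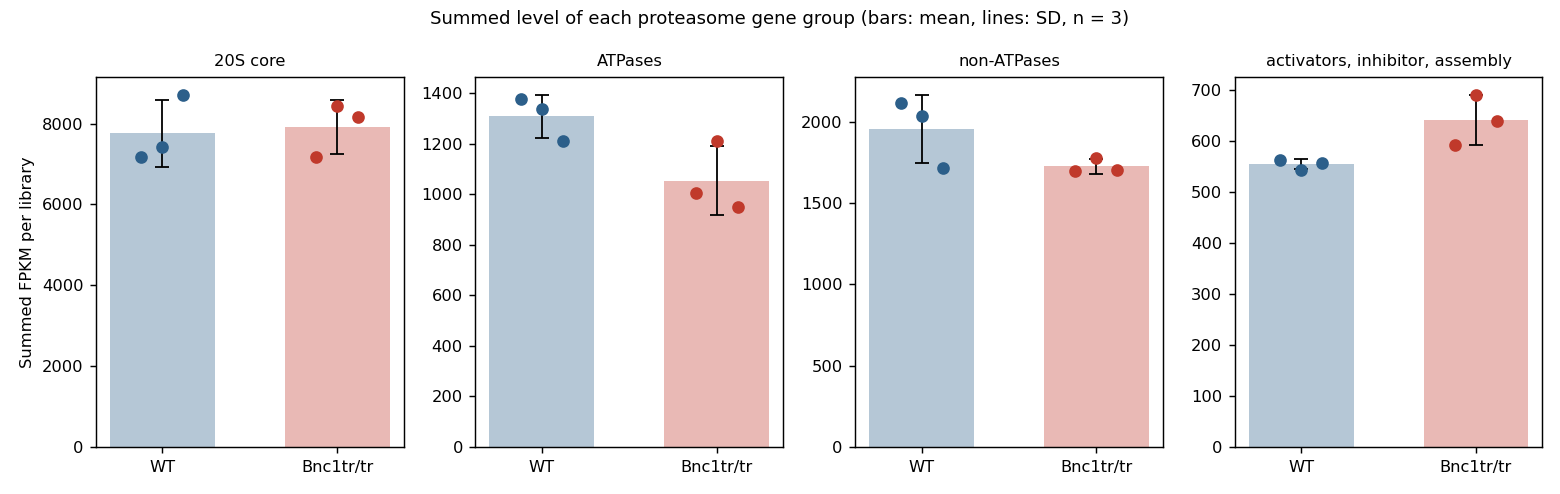
Summed FPKM per library of the 14 core genes, the 6 ATPases, the 14 non-ATPases and the 10 activator, inhibitor and assembly genes (points: libraries; bars: mean; lines: SD, n = 3). The ATPase sums of the groups meet at 1211 FPKM, and the core sums overlap.

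Ratios within a library do not depend on scaling by a factor. The mean FPKM per ATPase gene was 0.327, 0.335 and 0.272 of the mean per core gene in Bnc1tr/tr and 0.448, 0.421 and 0.324 in WT. WT replicate 3 thus lay among the Bnc1tr/tr libraries, while the other WT libraries lay above them. For the non-ATPases the ratios were 0.236, 0.211 and 0.209 against 0.295, 0.275 and 0.197, and WT replicate 3 was the lowest of all 6.

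WT replicate 3 differed from the other WT libraries across the family. It was the lowest WT library for 11 of 14 non-ATPase and 5 of 6 ATPase genes and the highest for 9 of 14 core genes. Its estimated depth, 21.3 M fragments, was the largest of the 6, while its number of genes above 0, 13896, was the smallest. The 10 oocyte markers summed to 6445 FPKM in it, against 10527 and 9621 FPKM in WT replicates 1 and 2. WT replicate 3 thus differed from the other WT libraries beyond the proteasome genes as well. Over the 42 tested genes its log2 difference from the mean of the other WT libraries had a Pearson r of -0.11 and a Spearman rho of -0.34 with the length of the longest coding transcript, and r = -0.29 and rho = -0.25 with GC content, a description over genes that share the same libraries. The fold change between genotypes had r = -0.03 and rho = -0.16 with that length, and r = 0.14 and rho = 0.12 with GC content. Without WT replicate 3, 4 proteasome genes were called (Psmc3 and Psmd6 lower, Psma7 and Psmd7 higher). Of the fits without 1 library, those without WT replicate 2 and without Bnc1tr/tr replicate 1 left the fewest calls, 0 and 1 (Psmc3). Over all tested genes, 2323 and 2495 were called in these fits, against 3358 in the full fit and 3539 without WT replicate 3.

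Copies of several members exist elsewhere in the genome. More than 20% of the 31-base words in coding transcripts also occurred in transcripts of other genes for 13 of the 50 genes, among them Psmb5 (71.7%), Psmb3 (66.8%) and Psma5 (66.5%), where the gene model with the most shared words was absent from the FPKM tables. For 20 genes, including Psmd7, Psmd10, Psma7 and Psmg1, no word was shared, and for Psmc3 the share was 7.79%. Psmc3ip shared 28.2%, most with Mlx. Values of the genes over 20%, Psmc3ip included, are uncertain as far as the split of fragments between copies goes.

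Genes that work with the proteasome under other names were read from 5 lists. Of 43 listed genes 34 were tested, and 10 (29.4%, 7 higher and 3 lower) were called, a share near the 31.8% of all tested genes. Of 5 tested genes of ubiquitin supply 1 rose and 2 fell (median log2 fold change -0.29). Ubb, a polyubiquitin gene, had 4090.1, 4563 and 4100.3 FPKM in Bnc1tr/tr and 6953, 7684 and 8463 FPKM in WT, and every mutant library was far below every WT library (log2 fold change -0.85, SE 0.16, limma adjusted p = 0.004). The enzymes that activate ubiquitin differed in direction. Uba1, the main one, had 14.3, 13.7 and 12.8 FPKM in Bnc1tr/tr and 25.4, 24.0 and 21.7 FPKM in WT and fell (log2 fold change -0.76, limma adjusted p = 0.0062). Uba6, the alternative one, had 15.2, 15.5 and 17.2 FPKM in Bnc1tr/tr and 6.80, 5.96 and 8.41 FPKM in WT and rose (log2 fold change 1.08, limma adjusted p = 0.0017). Neither gene had overlapping groups, and Ubb, Uba1 and Uba6 kept their calls in 14 of 14 alternatives.

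Among 11 tested proteasome genes without a Psm symbol 1 was called higher and 1 lower, with a median log2 fold change of -0.17. Of all tested genes 24.1% were called higher and 7.68% lower. Pomp, the maturation factor of the core, had 165, 199 and 212 FPKM in Bnc1tr/tr and 249.98, 285 and 338 FPKM in WT and fell (log2 fold change -0.59, limma adjusted p = 0.038), a call lost in 6 of 14 alternatives. Ube3c, a ubiquitin ligase of the proteasome, had 5.01, 5.37 and 4.36 FPKM in Bnc1tr/tr and 2.85, 3.26 and 3.09 FPKM in WT and rose (log2 fold change 0.54, limma adjusted p = 0.03), a call lost in 7 alternatives, the 3 scalings among them. Usp14, a deubiquitinase bound to the regulatory particle, had 54.4, 59.6 and 59.1 FPKM in Bnc1tr/tr and 45.5, 42.9 and 32.9 FPKM in WT (log2 fold change 0.52, limma adjusted p = 0.054), and the ubiquitin receptor Adrm1 145, 131 and 124 FPKM in Bnc1tr/tr and 204, 176 and 118 FPKM in WT (limma adjusted p = 0.36). Neither passed, but Usp14 was called higher without the filter on low values, with a minimum mean of 5 FPKM and with trend and robust variances, and Adrm1 lower without WT replicate 3.

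Of 7 tested genes of NRF1 control 2 were called higher, near the 24.1% of all tested genes, and the median log2 fold change was 0.10. Nfe2l1 itself had 9.51, 5.87 and 7.85 FPKM in Bnc1tr/tr and 6.97, 7.48 and 6.63 FPKM in WT, with overlap (95% interval of the log2 fold change -0.33 to 0.54). Ddi2, the protease that activates NRF1, had 9.59, 5.76 and 6.76 FPKM in Bnc1tr/tr and 4.62, 4.60 and 2.98 FPKM in WT and rose (log2 fold change 0.72, limma adjusted p = 0.039), a call lost in 9 of 14 alternatives. Mafg, which encodes a small MAF partner, had 7.48, 4.28 and 4.91 FPKM in Bnc1tr/tr and 2.60, 2.56 and 1.73 FPKM in WT and rose (log2 fold change 0.97, limma adjusted p = 0.0097). It lost the call after quantile normalization, where the adjusted p was 0.053.

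Shuttling factors and partners of the segregase p97 gave 2 higher calls of 9 tested genes, also near that background, with a median log2 fold change of -0.03. Ubqln1, a shuttle that carries ubiquitylated proteins to the proteasome, had 74.8, 54.1 and 74.7 FPKM in Bnc1tr/tr and 40.7, 41.2 and 38.4 FPKM in WT and rose (log2 fold change 0.73, limma adjusted p = 0.015), a call lost without Bnc1tr/tr replicate 1 or 3. Faf2, a p97 adaptor, had 6.30, 4.56 and 4.65 FPKM in Bnc1tr/tr and 2.31, 3.35 and 1.43 FPKM in WT and rose (log2 fold change 0.90, limma adjusted p = 0.018), a call lost after quantile normalization and without Bnc1tr/tr replicate 1. Of 7 genes of antigen processing and interferon response 2 were tested, B2m and Irf1, and 1 was called, with 24.1% of all tested genes called higher. The median log2 fold change of the 2 was 0.78, against 0.15 over all tested genes. Irf1 overlapped between groups and was not called (log2 fold change 0.77, limma adjusted p = 0.068). B2m, the light chain of MHC class I, had 135, 138 and 158 FPKM in Bnc1tr/tr and 56.9, 86.0 and 114 FPKM in WT and rose (log2 fold change 0.79, limma adjusted p = 0.038). B2m lost the call in 9 of 14 alternatives. Tap1, the peptide transporter gene beside Psmb9, had at most 0.04 FPKM in any library.

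**Figure D4:**
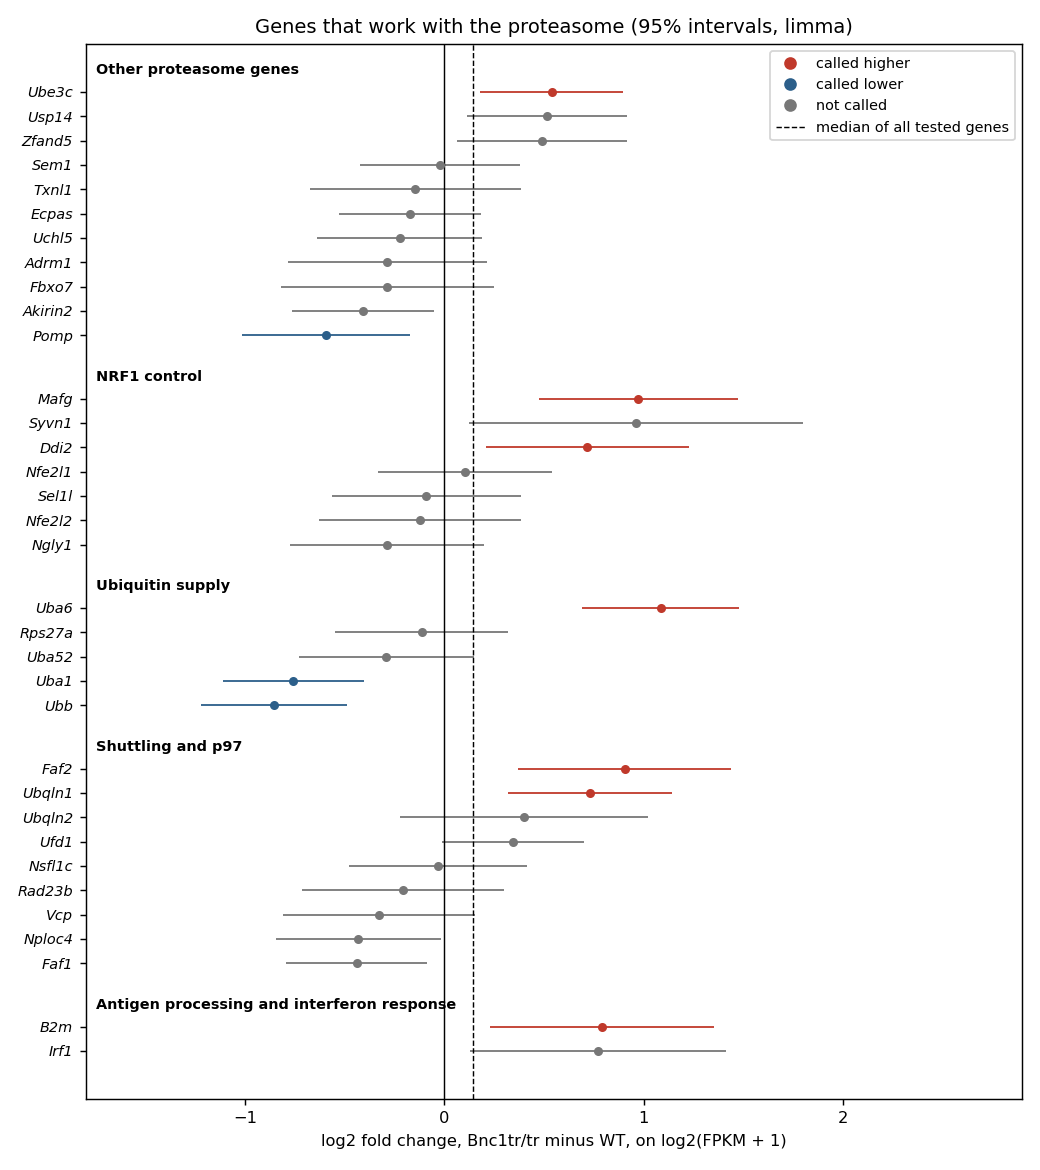
Log2 fold change (Bnc1tr/tr minus WT) with 95% limma intervals for 34 tested genes of 5 lists, in red where called higher and in blue where called lower. Ubb, Uba1 and Pomp lie to the left and Uba6, Mafg, Faf2, B2m, Ubqln1, Ddi2 and Ube3c to the right, and the dashed line marks the median of all tested genes at 0.15.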

How the data were processed

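Smart-seq2 libraries of GV oocytes, 3 Bnc1tr/tr and 3 WT, were analysed. For each library, values per gene were deposited by the authors as FPKM with 2 decimals, and 17577 genes are common to the 6 tables. The submitters' processing notes name GRCm38.p6, HISAT2 2.0.4, Bowtie2 2.2.5 and RSEM 1.2.12 without their roles; the annotation and any gene filter are not given in the sources used here. Groups and replicate numbers came from the labels. The study describes its replicates as biological, and whether each came from a different mouse is not stated, so p-values measure the spread between these libraries.

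The 10560 genes whose mean reached 1 FPKM entered a limma fit (version 3.58.1, under R 4.3.3) on log2(FPKM + 1), a scale that understates the change of low genes, with Benjamini-Hochberg adjustment over all of them and the thresholds that the study names (adjusted p under 0.05, absolute log2 fold change over 0.5). The fit was tested on simulated data. Depth was estimated from FPKM steps of genes with 1 GENCODE M21 transcript of 450 to 1600 bases and used in no test. Floors of 3 fragments take the longest coding transcript less 210 bases and cover counting error only, since fragments of amplified cDNA are not independent molecules.

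The members and gene lists were chosen with earlier results of these data known. Every called member and a fixed panel (catalytic, inducible and ubiquitin-handling subunits, activators, chaperones, the most and least abundant of each group) is named with all its values; others named for their values are marked. Alternatives were another pseudocount, other filters, 3 scalings, trend and robust variances, the replicate number as a block, the p threshold alone, and leaving out each library. Paaf1 was not analysed here, and 2 other listed genes are not reported here and are left out of every list count. Figures were drawn with matplotlib 3.10.9.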

Additional observations from a re-analysis of the deposited data

How the results depend on the processing

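Of the 42 tested proteasome genes 3 were called (1 higher, 2 lower). Calls of genes lower in Bnc1tr/tr numbered 1 with a pseudocount of 0.1 and without a filter on low values. Upper-quartile scaling gave 6 calls (5 lower), median-ratio scaling 7 (6 lower), quantile normalization 5 (2 higher), and trend and robust variances 5 (2 higher). Lower calls also rose over all 10560 tested genes, from 811 as reported to 1231 under upper-quartile and 1395 under median-ratio scaling. After quantile normalization 1811 genes were called lower and 1670 higher, and with trend and robust variances 813 and 2524. The fit with the replicate block, in which numbers of the labels pair the libraries, gave 3 calls (1 higher, 2 lower) and changed no call of a proteasome gene. It gave 3733 calls over all genes, against 3358 as reported, and 12 in the companion lists, against 10. The methods of the study state that comparisons were between littermates, while the labels do not say that equal numbers mark a litter. The numbers were therefore not taken as pairs. Deviations of same-numbered libraries correlated at 0.28, -0.03 and 0.12, which with 3 libraries per group cannot settle whether they pair. Leaving out each library gave 0 to 4 calls, 0 to 2 higher and 0 to 3 lower, with 0 without WT replicate 2 and 1 without Bnc1tr/tr replicate 1. The ratio of summed FPKM was 0.779 for non-ATPases under median-ratio scaling, and 1.05 and 1.02 for activators, inhibitor and assembly under upper-quartile and median-ratio scaling. The median of the proteasome genes relative to all genes was -0.0059 after quantile normalization. Calls in the companion lists (10) ranged from 4 (without Bnc1tr/tr replicate 1) to 13 when a library was left out, with 6 without WT replicate 2.

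Of 513 gene values over 37 named genes 427 kept direction and side of the threshold, 50 lost and 8 gained the call, and 28 turned direction, all of them in genes that were not called. Log2 fold changes turned to -0.037 (Psmb7), -0.13 (Psmd9), -0.10 (Psme4), -0.062 (Psmg1) and -0.021 (Nfe2l1) under upper-quartile scaling, to -0.082, -0.17, -0.15, -0.11 and -0.061 for the same genes under median-ratio scaling, and to 0.031 (Psma2), -0.066 (Psmd9), -0.19 (Psme4), -0.27 (Psmg2) and -0.22 (Nfe2l1) after quantile normalization. Psmd13 was at 0.027 with a pseudocount of 0.1. Over the fits without 1 library they ranged from -0.13 to 0.083 (Psma2), -0.085 to 0.072 (Psmb5), -0.016 to 0.22 (Psmb7), -0.36 to 0.34 (Psmd13), -0.17 to 0.13 (Psmd9), -0.043 to 0.16 (Psme4), -0.21 to 0.44 (Psmg2), -0.18 to 0.12 (Psmg4) and -0.040 to 0.27 (Nfe2l1). The cause was not tested.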
